A study of Mus musculus with 20 samples.

Results

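Genes whose products cut or help to cut procollagen and proteoglycan outside the cell, 10 in number, were followed through 20 bulk RNA-seq libraries of cultured kidney myofibroblasts, the contractile fibroblasts that deposit scar matrix. They were chosen by name, with earlier results of these data known. All were among the 51826 genes of the count table and among the 20407 genes with enough reads to be tested. Adamts1, Adamts2, Adamts4, Adamts5, Adamts9, Adamts12 and Adamts14 encode secreted ADAMTS metalloproteinases. Bmp1 encodes a procollagen C-proteinase, and Pcolce and Pcolce2 encode the proteins that enhance it. The cells were primary renal myofibroblasts of C57BL/6J mice, grown out of pieces of kidney and used after passaging. They came from wild-type (WT) animals or from animals lacking the ubiquitin ligase WWP2 (WWP2-/-, KO in the labels), and were left untreated or given the profibrotic cytokine TGFb1. Each of the 4 groups, WT untreated, WT with TGFb1, WWP2-/- untreated and WWP2-/- with TGFb1, held 5 libraries. The deletion was in every cell of the animal, and the dose and duration of TGFb1 are not given in the labels. No label ties a library to an animal or gives its age or sex, so the p-values measure only the spread between these libraries.

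Fibrillar collagens are secreted as procollagens, with a propeptide at each end that keeps them soluble. ADAMTS2 and ADAMTS14 remove the propeptide at the amino end, BMP1 removes the one at the carboxyl end, and PCOLCE binds the carboxyl propeptide and speeds that cut. ADAMTS1, ADAMTS4, ADAMTS5 and ADAMTS9 cut the large proteoglycans versican and aggrecan, and ADAMTS12 cuts the cartilage protein COMP. In fibrotic kidney these steps govern how much secreted collagen becomes insoluble fibril and how the matrix around it is turned over.

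The 8 proteases share a catalytic signature of His and Glu residues, in which the His residues hold the zinc ion. The 36 coding bases that spell it are shown because they are what defines these genes as one enzyme class, and the capitals mark the codons for the His and Glu of the first pair and for the next 2 His, read 5′ to 3′ on the coding strand of GENCODE M21 transcripts.
Adamts2: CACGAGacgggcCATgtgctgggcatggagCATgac
Adamts14: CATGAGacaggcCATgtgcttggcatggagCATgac
Adamts1: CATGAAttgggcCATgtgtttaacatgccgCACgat
Adamts4: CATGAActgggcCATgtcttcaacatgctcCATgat
Adamts9: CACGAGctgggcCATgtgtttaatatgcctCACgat
Adamts5: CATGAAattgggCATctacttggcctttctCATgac
Adamts12: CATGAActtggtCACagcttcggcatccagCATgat
Bmp1: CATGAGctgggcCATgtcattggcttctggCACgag
In the 7 ADAMTS genes the stretch crossed an exon boundary, and in Bmp1 it lay within exon 5 at chr14:70508057-70508092, on the minus strand of GRCm38. The stretch of Adamts2 is split between exons 7 and 8 (chr11:50775403-50776137, plus strand), as is that of Adamts14 (chr10:61225462-61227123, minus strand). These 2 procollagen N-proteinases were the most alike of all pairs, with 33 of 36 bases shared. Adamts1 shared 31 bases with Adamts9 and 30 with Adamts4. The stretch was found in neither Pcolce nor Pcolce2, which are not proteases. Adamts1 (chr16:85793827-85803113) and Adamts5 (chr16:85856173-85901828) lie on the same strand of one chromosome with 53059 bases and 1 annotated gene between them.

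RefSeq promoter sequences of the same build were matched for 7 of the 10 genes, without Adamts4, Adamts5 and Bmp1. The 250 bases before the start are given for Adamts9, whose genotype difference with TGFb1 passed in all 20 alternative fits, and for Adamts2, whose fitted difference was the largest of the 10. Capitals mark every match on either strand to 1 of the 5 motifs searched, the TATA box TATAAA, the GC box GGGCGG, the AP-1 site TGANTCA, the SMAD box CAGAC and the Twist-type E-box CATCTG.
Adamts9: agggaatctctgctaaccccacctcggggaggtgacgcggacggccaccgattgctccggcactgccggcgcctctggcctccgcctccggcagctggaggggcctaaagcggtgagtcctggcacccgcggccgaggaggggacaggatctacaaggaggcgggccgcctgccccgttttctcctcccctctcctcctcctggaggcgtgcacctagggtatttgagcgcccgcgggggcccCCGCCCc
Adamts2: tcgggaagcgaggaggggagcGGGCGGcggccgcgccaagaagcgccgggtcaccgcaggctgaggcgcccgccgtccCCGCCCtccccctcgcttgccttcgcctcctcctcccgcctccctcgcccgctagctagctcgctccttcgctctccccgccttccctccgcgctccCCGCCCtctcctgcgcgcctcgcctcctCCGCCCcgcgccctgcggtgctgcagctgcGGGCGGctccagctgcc
Adamts9 (chr6:92943535-92943784, minus strand) held a single GC box and none of the other motifs, with 71.2% G and C. The RefSeq start used for Adamts9 lies before its GENCODE M21 gene, which begins at chr6:92943492, so the annotations differ there. Adamts2 (chr11:50601835-50602084, plus strand) held 5 GC boxes and 78% G and C, against a median of 52.4% over 32851 promoters. Of all promoters, 32.7% held a GC box, 12.4% a TATA box, 6.7% an AP-1 site, 42.2% a SMAD box and 14.4% the E-box. Adamts1 was alone among the 7 in holding a TATA box, Adamts14 in holding a SMAD box and Pcolce in holding the E-box, and none held an AP-1 site in this window. These matches are descriptions of letters, and no binding was measured.

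The libraries held 47520759 to 73063697 counts each. Wwp2, the deleted gene, stood at 50.0 to 59.8 CPM (counts per 1000000 counts of the library, after TMM scaling) in the 10 WT libraries and at 17.03 to 22.7 CPM in the 10 WWP2-/- libraries. It was lower with adjusted p-values that passed in both genotype comparisons, at a log2 fold change of -1.49 ± 0.08 (SE) with TGFb1 and -1.37 ± 0.08 untreated. Whether the remaining reads lie outside the deleted part was not tested. All 10 genes of the fibroblast marker list were above 1 CPM on average in WT untreated cells. The summed fibroblast markers reached 4649 to 33959 CPM in WT and 4293 to 13208 CPM in WWP2-/- libraries. Contractile markers summed to 1508 to 4674 CPM in 18 libraries but to 125 CPM in WWP2-/- untreated replicate 3 and 142 CPM in WWP2-/- with TGFb1 replicate 1. Acta2 was 38.9 and 50.4 CPM in this pair, which was also each other's nearest library, against 1016 CPM or more in the rest. The sex transcripts were spread unevenly over the genotypes. Only Y-linked transcripts, without Xist, were present in 7 WWP2-/- libraries but in 2 WT libraries, WT untreated replicate 4 and WT with TGFb1 replicate 3. Xist alone was present in 4 WT and 2 WWP2-/- libraries, the latter being the pair with little Acta2, and 4 WT libraries and 1 WWP2-/- library held both. Macrophage markers, 8 genes led by Lyz2, summed to 74.8 to 3620 CPM and were highest in WT untreated replicate 4 and in WWP2-/- with TGFb1 replicates 4 and 5. In bulk RNA, fewer cells of a type and less RNA per cell cannot be told apart.

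With TGFb1, 3 of the 10 genes were lower in WWP2-/- than in WT myofibroblasts and none was higher. They were Adamts5, Adamts9 and Pcolce, which encode a proteoglycan-cutting enzyme, a second enzyme of that kind and the enhancer of procollagen C-proteinase. Over all 20407 genes, 809 were lower (3.96%) and 429 higher (2.1%) by the same edgeR quasi-likelihood test. The median log2 fold change of the 10 genes was -0.79, beside 0.05 over all genes tested. In untreated cells none of the 10 passed, whereas 148 of all genes did (0.725%), and 4 of the 10 had an unadjusted p under 0.05, against 14.9% of all genes. DESeq2's Wald test called Adamts5, Adamts9 and Pcolce lower in untreated cells too, among 2.6% of all genes.

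**Figure D1:**
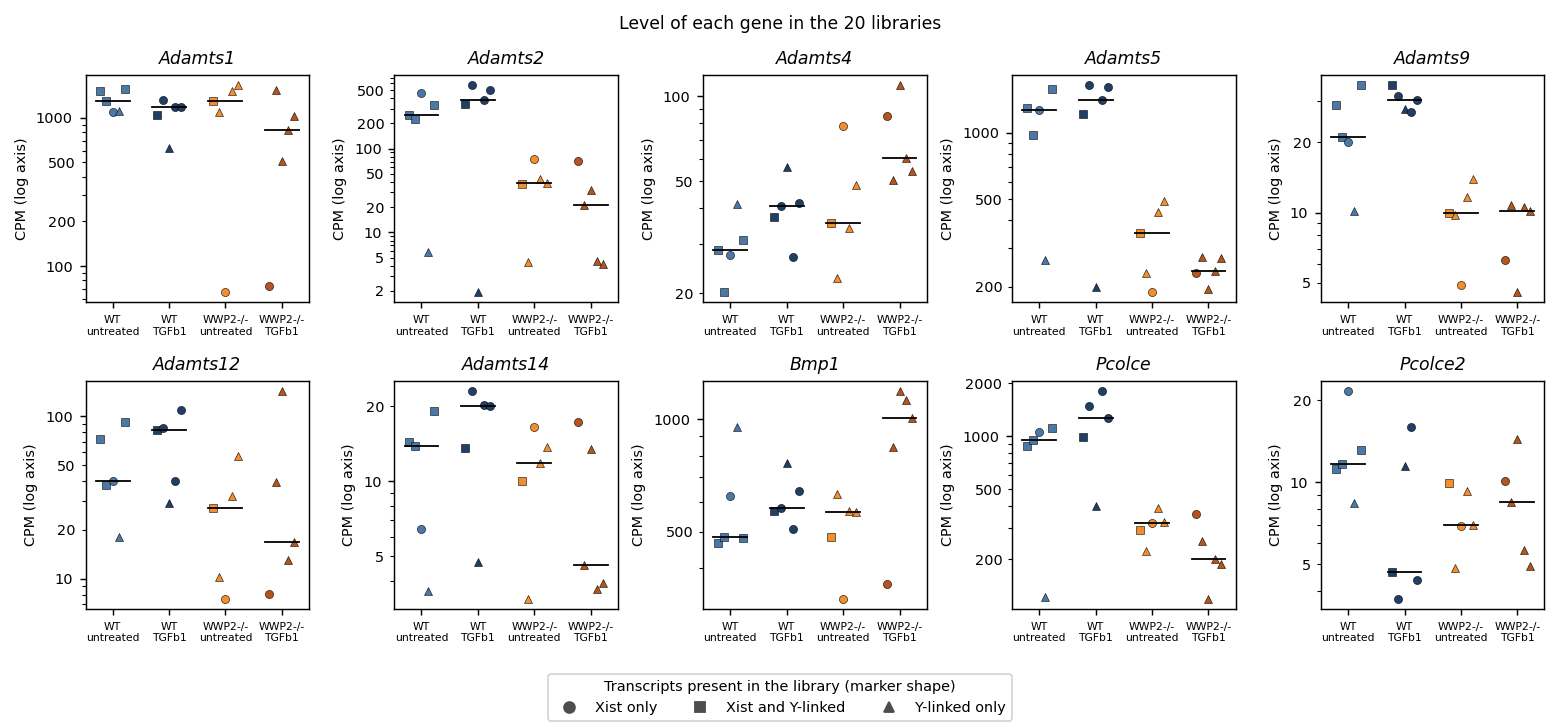
Level of each of the 10 genes (CPM, log axis) in the 20 libraries, by group. Points are libraries, black bars are group medians, and the marker shape shows which sex transcripts a library held. In Adamts2, Adamts5 and Pcolce the triangles of the 2 WT libraries with Y-linked transcripts alone sit with or near the WWP2-/- points, while in Adamts9 all 5 WT libraries with TGFb1 lie above all WWP2-/- libraries with TGFb1.

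**Figure D2:**
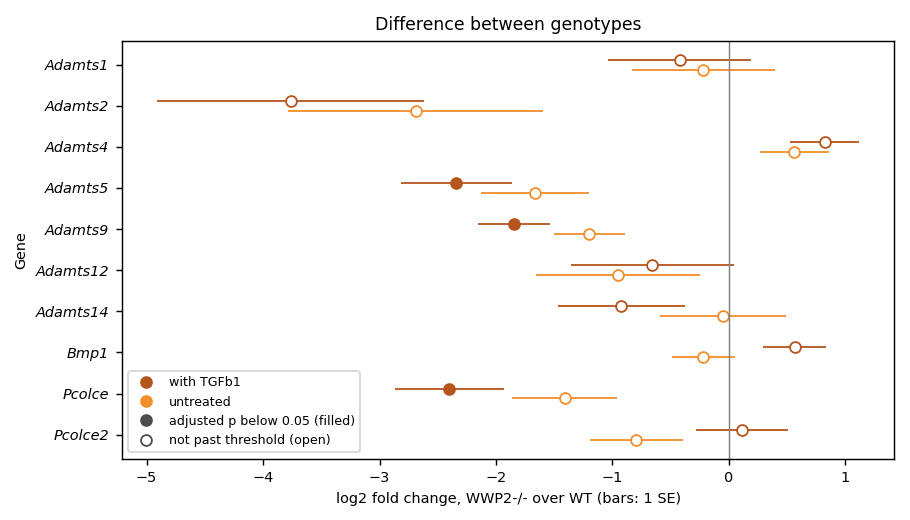
Log2 fold change of WWP2-/- over WT for each gene, with TGFb1 (dark) and untreated (light), bars 1 SE, filled points past an adjusted p of 0.05 by edgeR. Only Adamts5, Adamts9 and Pcolce with TGFb1 are filled, at -2.34, -1.84 and -2.40.

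Adamts9 cuts versican and aggrecan and is among the ADAMTS enzymes made by many tissues in development. In WT cells with TGFb1 the 5 libraries held 35.2, 31.7, 27.7, 27.1 and 30.4 CPM, in the order of their replicate numbers. In WWP2-/- cells with TGFb1 they held 6.28, 10.8, 4.56, 10.5 and 10.2 CPM. The groups did not overlap, and the WT libraries with TGFb1 were the most even of any group for any of the 10 genes, the highest being 1.3 times the lowest. Groups lay apart in this comparison, with WWP2-/- below, for 3.08% of all genes. The difference was 3.59-fold, a log2 fold change of -1.84 ± 0.31 (SE), with an adjusted p of 0.00639 in edgeR's quasi-likelihood test. Untreated WT cells held 29.0, 21.1, 19.98, 10.2 and 35.1 CPM, and untreated WWP2-/- cells 10.001, 9.79, 4.89, 11.7 and 13.9 CPM. WT replicate 4 lay inside the WWP2-/- range, and the other WT libraries lay above it. The untreated difference was -1.20 ± 0.31 in log2 with an edgeR adjusted p of 0.0842, and without WT replicate 4 it was -1.42 with an adjusted p of 0.00806. With Xist as a covariate the difference with TGFb1 was -1.90 ± 0.37 and still passed (adjusted p = 0.0187). Exons of Adamts9 overlap those of A730049H05Rik and Gm15737 on the other strand, and the strand setting of the counting is not given in the sources used here.

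Adamts5 encodes the main aggrecanase of mouse cartilage and also cuts versican. WT cells with TGFb1 held 1215, 1652, 198, 1410.4 and 1617 CPM of Adamts5. WWP2-/- cells with TGFb1 held 231, 274, 194, 235 and 269.6 CPM, a narrow range in which the highest was 1.41 times the lowest. WT replicate 3 fell within that range and the other WT libraries were above every WWP2-/- library. The log2 fold change was -2.34 ± 0.48 (adjusted p = 0.0121 by edgeR), 5.06-fold lower in WWP2-/-. In untreated WT cells Adamts5 stood at 1291, 975, 1263, 265 and 1582 CPM. Untreated WWP2-/- cells held 351, 229.7, 189, 436 and 492 CPM. Again 1 WT library, replicate 4, was among the WWP2-/- values and the other WT libraries were above all of them. The untreated difference of -1.66 ± 0.47 had an edgeR adjusted p of 0.105, and leaving out WT replicate 4 gave -1.94 and an adjusted p of 0.0137.

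Pcolce binds the carboxyl propeptide of procollagen and enhances its removal by BMP1. In WT cells with TGFb1 it stood at 992, 1474, 398, 1792 and 1265 CPM. WWP2-/- cells with TGFb1 held 361, 252, 119, 199.6 and 187 CPM. The groups did not overlap, though WT replicate 3 was close to the highest WWP2-/- library, replicate 1. The difference was 5.29-fold, -2.40 ± 0.47 in log2, with an edgeR adjusted p of 0.0109. Without TGFb1, WT libraries held 877, 950.1, 1061, 122 and 1109 CPM, and WWP2-/- libraries 293, 221, 319, 391 and 324 CPM. WT replicate 4 was below every untreated WWP2-/- library, and the other WT libraries were above every one. The untreated difference of -1.41 ± 0.45 had an adjusted p of 0.163, which became 0.00820 at -1.72 without WT replicate 4. Pcolce shares 112 exonic bases with Fbxo24 on the same strand. Pcolce2, the second enhancer, was a minor transcript at 3.75 to 21.5 CPM over all 20 libraries. With TGFb1 its genotype difference was 0.11 ± 0.39 in log2 (adjusted p = 0.897), and untreated it was -0.79 ± 0.40 (adjusted p = 0.354), in edgeR. The ratio of Pcolce2 to Pcolce, computed after the values were seen, had a median of 0.0047 in WT and 0.0284 in WWP2-/- cells with TGFb1.

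Adamts2, the main procollagen N-proteinase, showed the widest spread of the 10 genes. WT cells with TGFb1 held 337, 577, 1.94, 377 and 498 CPM, and WT cells without it 252, 223, 468, 5.76 and 331 CPM. WWP2-/- cells held 70.2, 20.95, 32.0, 4.55 and 4.204 CPM with TGFb1 and 38.0, 4.41, 74.2, 43.0 and 38.9 CPM untreated. Thus 8 of the 10 WT libraries lay at 223 CPM or above, all WWP2-/- libraries lay at 74.2 CPM or below, and 2 WT libraries fell near the lowest of all. The log2 fold change was -3.76 ± 1.15 with TGFb1 and missed the threshold (adjusted p = 0.0579, edgeR). It passed at -4.09 without WT replicate 3 (adjusted p = 0.0131), at -4.55 without WWP2-/- replicate 1 (adjusted p = 0.0357) and in DESeq2's Wald test (adjusted p = 0.00243), which called 6.81% of all genes lower. Untreated, the difference of -2.69 ± 1.09 had an adjusted p of 0.267. The lowest Adamts2 values were those of WT with TGFb1 replicate 3, with macrophage markers summing to 403 CPM, and of 4 libraries between 4.204 and 5.76 CPM. These 4 were WT untreated replicate 4, WWP2-/- untreated replicate 2 and WWP2-/- with TGFb1 replicates 4 and 5. They had the highest macrophage sums of the series, 1628 to 3620 CPM. They also had its highest sums of tubular epithelial markers, 422 to 709 CPM, and held Y-linked transcripts without Xist. The parts of macrophage RNA, tubular RNA and sex in the level of Adamts2 were not tested.

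Adamts14, the paralog of Adamts2 with nearly the same catalytic stretch, was far less abundant, and its fitted difference was smaller. WT cells with TGFb1 held 13.7, 23.0, 4.75, 20.3 and 20.1 CPM and WWP2-/- cells with TGFb1 17.4, 4.61, 13.5, 3.70 and 3.91 CPM. The groups overlapped, and the log2 fold change of -0.93 ± 0.55 did not pass (adjusted p = 0.306 by edgeR). Untreated values ran from 3.65 to 19.2 CPM in WT and from 3.39 to 16.5 CPM in WWP2-/- cells. The libraries lowest in Adamts2 were also among the lowest in Adamts14, at 3.39 to 4.75 CPM, and WWP2-/- with TGFb1 replicate 2 stood with them at 4.61 CPM. The ratio of Adamts14 to Adamts2 was formed after the values were seen. It was 0.0138 to 0.0623 in the 8 WT libraries with abundant Adamts2 and 0.220 to 0.930 in the 10 WWP2-/- libraries. In the WT libraries with little Adamts2 it was 0.633 (untreated replicate 4) and 2.45 (replicate 3 with TGFb1). The 8 were picked by their Adamts2, the denominator, so the gap between the first ranges shows nothing further.

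Of the other proteoglycan-cutting enzymes, Adamts1 and Adamts4, neither passed. Adamts1, known from ovulation and vessel growth, was abundant in most libraries. It ranged from 625 to 1558 CPM in the 10 WT libraries and from 512 to 1665 CPM in 8 WWP2-/- libraries. In the pair with little Acta2 it was 66.8 and 73.2 CPM. The log2 differences of -0.42 ± 0.62 with TGFb1 and -0.22 ± 0.62 untreated did not pass (adjusted p = 0.723 and 0.888, edgeR), and without that pair they were -0.14 and 0.065. With Xist as a covariate they were -1.42 and -0.95 and did not pass (adjusted p = 0.354 and 0.487). Leaving out single libraries moved the difference with TGFb1 between -0.15, without WWP2-/- replicate 1, and -0.83, without WWP2-/- replicate 2. Although Adamts1 and Adamts5 lie close together in the genome, the pair that was lowest for Adamts1 was not set apart in Adamts5, at 189 and 231 CPM. Of the WT libraries with little Adamts5, untreated replicate 4 held 1110.0 CPM of Adamts1, inside the range of the other WT libraries, and replicate 3 with TGFb1 held 625 CPM, the lowest of the 10. Adamts4, an aggrecanase made under inflammatory stimuli, had its higher values in WWP2-/- cells. WWP2-/- cells with TGFb1 held 84.8, 50.4, 109.5, 60.6 and 54.3 CPM, and WT cells with TGFb1 37.4, 40.9, 56.1, 27.0 and 41.8 CPM. A single WT library, replicate 3, overlapped the WWP2-/- values. The log2 fold change of 0.82 ± 0.30 did not pass (adjusted p = 0.0967), and without that library it was 0.96 with an adjusted p of 0.0498. Adamts12 ranged from 18.2 to 110.2 CPM in WT and from 7.55 to 143 CPM in WWP2-/- cells, with no difference past the threshold in either state (adjusted p = 0.607 and 0.540 by edgeR). The 143 CPM came from WWP2-/- with TGFb1 replicate 3, and without it the difference with TGFb1 was -1.85 (adjusted p = 0.0852) in place of -0.66.

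Bmp1, the procollagen C-proteinase itself, did not pass in either comparison. WT cells with TGFb1 held 569.8, 580.0, 764, 509.6 and 643 CPM. WWP2-/- cells with TGFb1 held 364, 844, 1187, 1128 and 1010.4 CPM. In this group 4 libraries were above every WT library and replicate 1, of the pair with little Acta2, was below every one. The log2 fold change of 0.56 ± 0.27 did not pass (adjusted p = 0.206, edgeR), and without replicate 1 it was 0.75 with an adjusted p of 0.0391. With Xist as a covariate it was -0.025 ± 0.19. Untreated values were 466 to 953 CPM in WT and 331 to 629.7 CPM in WWP2-/- cells, and the difference of -0.22 ± 0.27 did not pass (adjusted p = 0.728). The ratio of Bmp1 to Col1a1, which encodes a chain of type I procollagen, was 0.0541 to 0.231 in WT and 0.224 to 0.742 in WWP2-/- cells with TGFb1, a description made after the values were seen. For Pcolce the ratio to Col1a1 was 0.117 to 0.230 in WT and 0.0225 to 0.406 in WWP2-/- cells with TGFb1.

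Sex transcripts and genotype moved together in these libraries, so the levels were also set side by side within each class. Among libraries with Y-linked transcripts alone, Adamts5 was 198 and 265 CPM in the 2 WT and 194 to 492 CPM in the 7 WWP2-/- libraries. Pcolce was 122 and 398 CPM against 119 to 391 CPM, and Adamts2 was 1.94 and 5.76 CPM against 4.204 to 43.0 CPM. For Adamts9 this class held 10.2 and 27.7 CPM in WT and 4.56 to 13.9 CPM in WWP2-/-. Within this class the genotypes overlapped for Adamts2, Adamts5 and Pcolce, and for Adamts9 only the untreated WT library was inside the WWP2-/- range. Among libraries with Xist alone, the 4 WT libraries held 1263 to 1652 CPM of Adamts5, 1061 to 1792 CPM of Pcolce, 377 to 577 CPM of Adamts2 and 19.98 to 31.7 CPM of Adamts9. The 2 WWP2-/- libraries of this class, the pair with little Acta2, held 189 and 231 CPM of Adamts5, 319 and 361 CPM of Pcolce, 70.2 and 74.2 CPM of Adamts2 and 4.89 and 6.28 CPM of Adamts9. In the class with Xist alone every WT library was above both WWP2-/- libraries for these 4 genes. In the class with both, the 4 WT libraries held 975 to 1582 CPM of Adamts5 and 877 to 1109 CPM of Pcolce. They held 223 to 337 CPM of Adamts2 and 21.1 to 35.2 CPM of Adamts9. The 1 WWP2-/- library of that class, untreated replicate 1, was below every WT library of the class for these genes. It held 351 CPM of Adamts5, 293 CPM of Pcolce, 38.0 CPM of Adamts2 and 10.001 CPM of Adamts9. With Xist as a covariate in the fit, 1 of the 10 genes was lower with TGFb1 (Adamts9), against 1.34% of all genes. Adamts5 was then at -1.67 ± 0.60 (adjusted p = 0.112), Pcolce at -1.62 ± 0.43 (adjusted p = 0.0508) and Adamts2 at -1.43 ± 1.37 (adjusted p = 0.573). The 2 WT libraries with Y-linked transcripts alone also had the lowest fibroblast sums of their groups, 4649 CPM untreated and 10673 CPM with TGFb1. Pdgfra, a fibroblast receptor, was at 0.543 and 0.639 CPM in them against 66.5 to 179 CPM in the other WT libraries. These sums include the procollagen genes Col1a1, Col1a2 and Col3a1, which were lowest in both, as were Pdgfrb, Dcn, Lum and Thy1. Vim was not, at 2566 CPM (group range 2268 to 3647) and 3077 CPM (2202 to 3169), and S100a4 was lowest only in the untreated library. Their tubular sums of 422 and 201 CPM, their endothelial sums of 80.3 and 177 CPM and their macrophage sums of 3620 and 403 CPM were the highest of their groups. The endothelial list was not uniform. Pecam1, Cdh5, Emcn, Vwf and Egfl7 were the highest of their groups in both libraries. Kdr (2.78 and 1.78 CPM) and Tek (0.792 and 1.52 CPM) were the lowest in both. The tubular list had 9 of 11 markers, the endothelial list 7 of 7 and the macrophage list 8 of 8 above a floor of 3 counts in some library, with Slc34a1 and Aqp2 below it in all. In WWP2-/- libraries the tubular sums ran from 15.6 to 709 CPM and the endothelial sums from 9.32 to 168 CPM. Pdgfra was 0.548 to 1.87 CPM in the 7 WWP2-/- libraries with Y-linked transcripts alone. It was 93.4 and 105 CPM in the pair with little Acta2 and 14.4 CPM in WWP2-/- untreated replicate 1. The nearest library was WWP2-/- with TGFb1 replicate 5 for WT untreated replicate 4, and replicate 2 of that group for WT with TGFb1 replicate 3. Sex and most of these markers moved together in the 2 WT libraries. The parts of sex and these markers in the genotype differences of Adamts2, Adamts5 and Pcolce were not tested beyond the fit with Xist and the fits without these libraries.

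The libraries that stood apart were left out in alternatives added after the data were seen. Without WWP2-/- untreated replicate 3 and WWP2-/- with TGFb1 replicate 1, 4 of the 10 genes were lower with TGFb1 (Adamts2, Adamts5, Adamts9 and Pcolce) and Bmp1 was higher. Of all genes, 9.56% were lower and 7.69% higher in that fit. Without WT untreated replicate 4 and WT with TGFb1 replicate 3, the same 4 genes were lower both with TGFb1 and untreated, against 8.26% and 3.8% of all genes, and Adamts4 was higher with TGFb1, as were 8.21% of all genes. Leaving out all 4 libraries, 5 genes were lower (Adamts14 in addition) and Adamts4 and Bmp1 were higher with TGFb1, where 15.9% of all genes were lower and 16.7% higher. In untreated cells the same fit called 4 lower (Adamts2, Adamts5, Adamts9 and Pcolce), against 8.74% of all genes.

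**Figure D3:**
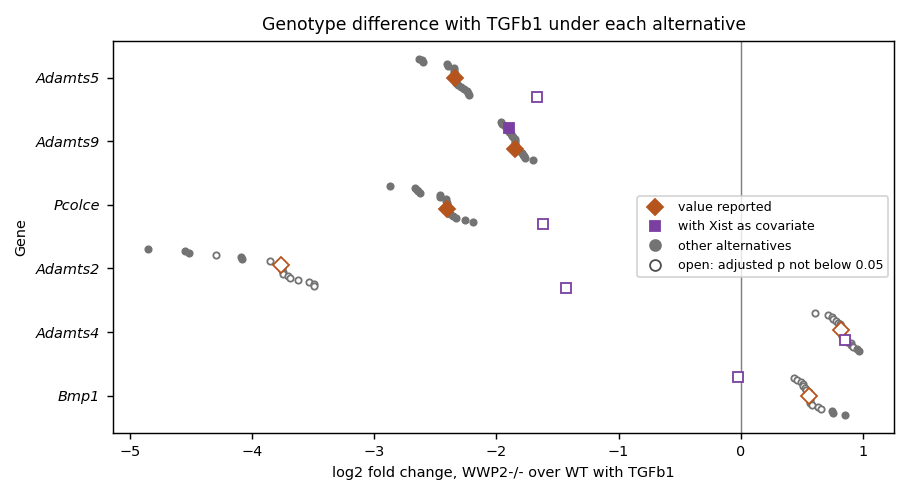
Log2 fold change of WWP2-/- over WT with TGFb1 for 6 genes under every alternative fit. Diamonds are the values reported, squares the fit with Xist as a covariate, circles the others, and open symbols did not pass. Adamts9 is filled throughout, and the square moves toward 0 for Adamts2, Adamts5, Pcolce and Bmp1.

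Levels per kilobase of exon put the 10 genes on one scale. In WT untreated cells Adamts1 led at 248 ± 40.5 CPM per kb (mean ± SD, n = 5), followed by Pcolce at 215 ± 105, Adamts5 at 99.6 ± 46.5 and Bmp1 at 67.8 ± 23.3. Adamts1 and Pcolce did not differ beyond their spread, nor did Adamts5 and Bmp1. Adamts2 came next at 27.4 ± 18.1 CPM per kb, and Adamts4, Adamts12, Pcolce2, Adamts14 and Adamts9 lay between 6.17 and 1.53 with no neighbours apart beyond their SD. In WWP2-/- cells with TGFb1, Bmp1 stood second at 102 ± 37.3 CPM per kb and Pcolce next at 58.6 ± 23.6. Bmp1 did not differ beyond the spread from Adamts1, which led at 150 ± 104. Adamts2 was in the seventh place there by mean, at 2.83 ± 2.91 CPM per kb. It did not differ beyond the spread from Adamts12 before it, at 4.03 ± 5.17. By median Adamts2 was above Adamts12, at 2.24 against 1.54 CPM per kb. Adamts9 was the lowest per kb in WT untreated, WWP2-/- untreated and WWP2-/- with TGFb1 cells, and Pcolce2 was the lowest in WT cells with TGFb1.

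**Figure D4:**
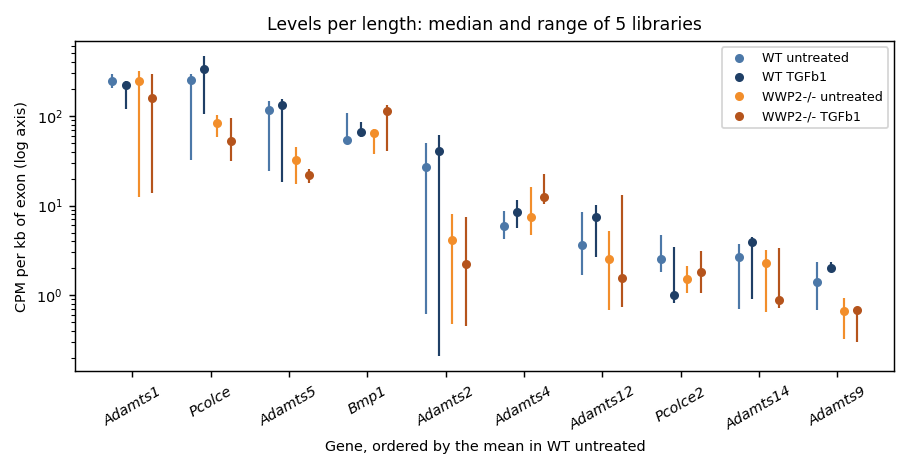
CPM per kb of exon (log axis) for the 10 genes in the 4 groups, points at the median and lines from the lowest to the highest of 5 libraries. Adamts1, Pcolce, Adamts5 and Bmp1 are the upper 4 in WT. The lines of Adamts2 are the longest in both WT groups, and those of Adamts1 in both WWP2-/- groups.

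TGFb1 itself moved none of the 10 genes past the threshold. Within WT the edgeR log2 changes ran from -0.71 ± 0.40 for Pcolce2 to 0.52 ± 0.45 for Pcolce, and 0 of the 10 had an unadjusted p under 0.05. In WWP2-/- cells Bmp1 stood highest at 0.81 ± 0.27 (adjusted p = 0.850), and Bmp1 and Adamts4 had an unadjusted p under 0.05. The test of whether the genotypes differed in their TGFb1 change gave 0 of 10, with the lowest unadjusted p of 0.0555 for Bmp1 at 0.78 ± 0.38. No gene of the whole table passed in these 3 comparisons in edgeR (0% of 20407), where unadjusted p-values under 0.05 made up 6.85% in WT, 3.49% in WWP2-/- and 6.98% in the interaction. DESeq2's Wald test called 27, 49 and 10 genes of the table, and none of the 10 described. Ccn2, listed as a response gene to check on the cytokine, did not pass either (0.42 ± 0.67 in WT). Since the TGFb1 groups share the WT and WWP2-/- libraries with the genotype comparisons, the genotype values with and without TGFb1 are given side by side and no test of their difference passed.

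The further gene lists were chosen with earlier results of these data known, so counts within them are descriptions. Of all genes tested, 3.96% were lower and 2.1% higher with TGFb1, and 0.622% were lower untreated. Among the other ADAMTS proteases, 11 of 12 were tested and 2 were lower in WWP2-/- with TGFb1, with none higher. Adamts15, a further proteoglycan-cutting enzyme, fell from 22.0 ± 13.0 to 0.654 ± 0.571 CPM (log2 fold change -5.06 ± 1.12, adjusted p = 0.0153), and WT replicate 3, at 0.579 CPM, was among the WWP2-/- values. Adamts10, a binding partner of fibrillin, was at 112 ± 30.0 CPM in WT and 44.2 ± 22.1 CPM in WWP2-/- cells (-1.35 ± 0.36, adjusted p = 0.0349). Adamts3, the third procollagen N-proteinase, stood at 2.48 ± 1.17 and 1.03 ± 0.54 CPM and did not pass (adjusted p = 0.125). Of 7 ADAMTS-like proteins, which lack the protease domain, 1 was lower, Adamtsl1 at -4.14 ± 0.996. Of the 3 other procollagen proteinases tested, Tll1, Tll2 and Mep1a, none passed, and Tll1 was at -0.82 ± 0.51. Among the inhibitors and clearance genes none of 7 passed, Timp3, the main inhibitor of ADAMTS4 and ADAMTS5, being at -1.05 ± 0.70 (adjusted p = 0.372). Of 4 proprotein convertases, which remove the prodomain of these enzymes, Pcsk6 was lower in both states, at 50.7 ± 15.5 against 6.99 ± 3.58 CPM with TGFb1 and 52.4 ± 25.4 against 7.77 ± 3.91 CPM untreated. With TGFb1, Adamts10 and Adamtsl1 lost their calls in 10 and 8 of 20 alternatives and Pcsk6 in none, whereas the untreated call of Pcsk6 was lost in 12 of 20. Furin, the convertase best known for this step, was at 0.19 ± 0.13 and did not pass (adjusted p = 0.380).

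The substrates were counted in the same way, in lists also chosen with earlier results known. The shares over all genes were again 3.96% lower and 2.1% higher with TGFb1, and 0.622% lower untreated. Of 11 fibrillar procollagen genes, 4 were lower and 1 higher in WWP2-/- with TGFb1, with a median log2 fold change of -1.42. Col1a1 was at 8161 ± 3057 CPM in WT and 2065 ± 1825 CPM in WWP2-/- cells (-1.98 ± 0.58, adjusted p = 0.0492), and Col1a2 at 8000 ± 2807 and 1296 ± 969 CPM (-2.63 ± 0.57, adjusted p = 0.0142). Col24a1 was at -4.34 ± 0.90 and Col5a2 at -1.68 ± 0.40, whereas Col5a3 was higher at 2.46 ± 0.57. In untreated cells Col24a1 (-4.01 ± 0.89), Col5a2 (-1.74 ± 0.40) and Col27a1 (-1.68 ± 0.32) were lower, and Col1a1 did not pass (adjusted p = 0.385). These untreated calls were lost in 12, 14 and 9 of 20 alternatives, in that order. Of the proteoglycans that ADAMTS enzymes cut, 2 of 4 were tested, and Vcan, which encodes versican, was higher at 323 ± 300 CPM against 52.8 ± 16.1 CPM (2.61 ± 0.56, adjusted p = 0.0138). The ratio of Adamts5 to Vcan transcripts was 2.89 to 47.8 in WT and 0.241 to 2.60 in WWP2-/- cells with TGFb1, again formed after the values were seen. Among 12 tested BMP1 substrates other than procollagens, 5 were lower and none higher with TGFb1. They were Ogn (-5.99 ± 1.05), Lox, the collagen cross-linking oxidase (-1.996 ± 0.53), Chrd, the BMP antagonist chordin (-1.96 ± 0.35), Ltbp1 (-1.86 ± 0.48) and Loxl1. With TGFb1, Col1a1 lost its call in 13 of 20 alternatives, Lox and Ltbp1 in 10 each, Col5a2 in 7, Loxl1 in 5, Col5a3 in 2 and Col1a2, Ogn and Vcan in 1 each, and Col24a1 and Chrd in none. Untreated, Chrd alone of these passed, at -1.54 ± 0.34 (adjusted p = 0.0432), a call lost in 12 of 20 alternatives.

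**Figure D5:**
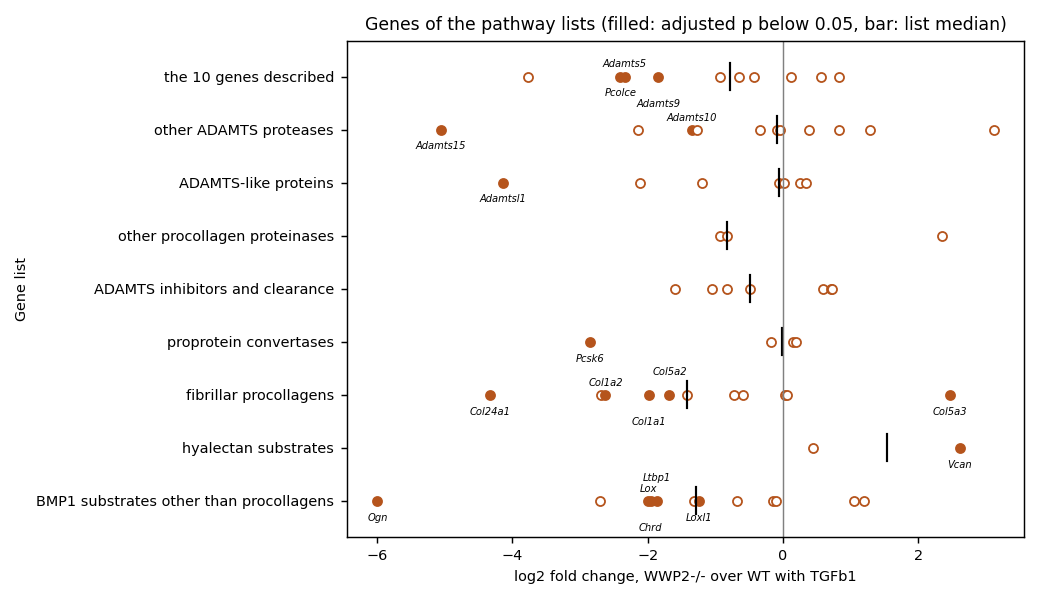
Log2 fold change of WWP2-/- over WT with TGFb1 for every tested gene of the pathway lists, filled past an adjusted p of 0.05 by edgeR, with a black bar at each list's median. The procollagen list has its median at -1.42 and the 10 genes described at -0.79, while Vcan and Col5a3 are the 2 filled points above 0.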

How the data were processed

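Poly-A selected RNA was sequenced from 20 libraries. The authors aligned reads with STAR to GRCm38 (mm10) and counted them over exons with featureCounts, and the deposited values are raw counts per gene; tool versions and the strand setting are not given in the sources used here. Replicates were not pooled. Gene names and exon lengths came from GENCODE M21, and promoters from RefSeq on GRCm38.p6.

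After removal of genes that did not reach 5 counts in 5 or more libraries, the rest were tested with edgeR 4.0.16 (TMM scaling, quasi-likelihood F test, R 4.3.3) in 1 fit over the 4 groups, two-sided, with Benjamini-Hochberg adjustment and a threshold of 0.05. SE is the log2 fold change divided by the square root of F. CPM values use TMM library sizes, and a group is given as mean ± SD over its libraries. Alternatives included DESeq2 1.42.0, other filters, a replicate block, Xist as a covariate and each library left out. Xist or the summed Y-linked genes above 1 CPM counted as present. No 2 libraries agreed within sampling noise. The fit was tested on simulated data.

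The 10 genes and all lists were chosen with earlier results of these data known. Named genes were all 10 and, from each other list, up to 4 called genes with the largest change and a mean of at least 1 CPM in some group; Loxl1, Col5a2 with TGFb1, Tll1, Adamts3, Timp3 and Furin were named after their values were seen.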

Additional observations from a re-analysis of the deposited data

Results flagged for a closer look

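Within each group of 5 libraries, the highest and lowest values of the 10 genes were compared with Dixon's 95% limit, and 2 of 40 groups passed it. Chance flags about 1 in 20 groups. Adamts12 was 143 CPM in WWP2-/- with TGFb1 replicate 3, and the next highest library of that group held 39.7 CPM. Pcolce was 122 CPM in WT untreated replicate 4, and the next lowest library of that group held 877 CPM.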

How the results depend on the processing

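Adamts9 with TGFb1 kept its direction and its call in all 20 alternatives, and Adamts5 and Pcolce in 19 of 20. With TGFb1, 3 of the 10 genes were lower and 0 higher. Leaving out each library gave 3 to 4 lower and 0 to 1 higher, the extra calls being Adamts2 and Adamts4 without WT replicate 3 and Adamts2 and Bmp1 without WWP2-/- replicate 1. With Xist as a covariate 1 was lower, at a threshold of 0.01 also 1, and without all 4 libraries that stood apart 5 were lower and 2 higher. Without either pair alone 1 was higher. Untreated, 0 were lower, DESeq2's Wald test called 3, leaving out each library gave 0 to 3 (3 without WT replicate 4), and leaving out the 2 WT libraries, or all 4, gave 4. For TGFb1 within WWP2-/- cells 0 were higher, and 1 (Bmp1) without all 4 libraries. The causes were not tested.

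Signs reversed only in differences that did not pass. Over single libraries left out, the log2 values ran from -0.43 to 0.066 for Adamts1 untreated and from -0.59 to 0.092 for its interaction. They ran from -0.079 to 0.45 for Adamts5 and from -0.057 to 0.25 for Bmp1, both for TGFb1 in WT. For Adamts12 they ran from -0.47 to 1.22 for TGFb1 in WWP2-/- and from -0.88 to 0.83 in the interaction. For Adamts14 untreated they ran from -0.32 to 0.21. For Pcolce2 they ran from -0.16 to 0.53 between genotypes with TGFb1 and from -0.049 to 0.36 for TGFb1 in WWP2-/-. With Xist as a covariate Adamts14 untreated was 0.69 and Bmp1 with TGFb1 -0.025. Without the 2 WWP2-/- libraries Adamts1 untreated was 0.065, and Bmp1 untreated was 0.010 without the 2 WT libraries and 0.089 without all 4.

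Same-numbered libraries correlated at -0.52 to 0.30 in their deviations from the group means, and 1 of 10 correlated best with its own number, so the numbers were not taken to pair the libraries. A replicate block left 3 genes lower with TGFb1 and 0 untreated, and moved the calls over all genes from 1238 to 670 with TGFb1 and from 148 to 1 untreated. Under it Adamts14 untreated was 0.016. With a replicate block for each culture, Adamts12 was -0.023 for TGFb1 in WWP2-/- and -0.49 in the interaction. Over the alternatives that left out at most 1 library, calls over all genes ran from 453 to 2730 with TGFb1 and from 1 to 743 untreated. The untreated ends equal the counts of the replicate block and of DESeq2's Wald test, which called 2672 genes with TGFb1. Counting depth was not limiting for the 10 genes, since 3 counts correspond to 0.041 to 0.063 CPM.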
